A study of Mus musculus with 4 samples.

Results

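Prostaglandin E2 is a lipid messenger made from arachidonic acid, and 10 genes for its synthesis, uptake, breakdown and sensing were followed in PyMT-A, a mouse mammary tumour cell line of FVB/NJ origin named after the polyoma middle T oncogene. They are Pla2g4a, Ptgs1, Ptgs2, Ptges, Ptges2, Ptges3, Slco2a1, Hpgd, Ptger2 and Ptger4, chosen by gene symbol from a table of 33677 rows. All 10 were found, and 8 of them passed the filter on low counts, as did 13299 genes in all. The comparison was between PyMT-A cells infected with the empty PMSCV-puro retrovirus (vector, 2 libraries) and PyMT-A cells infected with a PMSCV-Jagged1 virus (Jagged1, 2 libraries). Jagged1 is a ligand of Notch receptors, and both lines had been through viral infection and grew in culture, away from a host, in DMEM with serum. The sources used here do not give the species of the Jagged1 cDNA, whether either line was a pool or a clone, or whether the 2 libraries of a line came from separate cultures. What the p-values measure is thus the spread between these libraries, and that may be technical. Messenger RNA was measured, and neither the enzymes nor prostaglandin E2 itself.

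In the textbook pathway, cytosolic phospholipase A2 frees arachidonic acid from membranes, a cyclooxygenase turns it into prostaglandin H2, and a terminal synthase turns that into prostaglandin E2. A carrier takes the messenger back into cells, where a dehydrogenase inactivates it, and receptors of the EP family sense it at the cell surface. In mammary tumours the pathway is best known for cyclooxygenase-2, whose product can act on tumour cells and on nearby macrophages and T cells.

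The letters before the starts are shown for the 2 cyclooxygenase genes, Ptgs1 and Ptgs2, which are compared below, and for Pla2g4a, the chromosomal neighbour of Ptgs2. Ptgs2 (chromosome 1, 150100031 to 150108227, plus strand) and Pla2g4a (chromosome 1, 149829618 to 149961290, minus strand) have their starts facing each other across 138740 bases that hold 3 annotated genes, 0 of them protein coding. Ptgs1 lies on chromosome 2 (36230426 to 36252272, plus strand). The windows are the 250 bases before the RefSeq start on GRCm38.p6, at chr1:150099781-150100030 (plus strand), chr2:36230176-36230425 (plus strand) and chr1:149961291-149961540 (minus strand). Pla2g4a has 2 RefSeq starts, and only the window of the start nearer the annotated gene end is described. Each window is written 5′ to 3′ with motif matches in capitals.
Ptgs2: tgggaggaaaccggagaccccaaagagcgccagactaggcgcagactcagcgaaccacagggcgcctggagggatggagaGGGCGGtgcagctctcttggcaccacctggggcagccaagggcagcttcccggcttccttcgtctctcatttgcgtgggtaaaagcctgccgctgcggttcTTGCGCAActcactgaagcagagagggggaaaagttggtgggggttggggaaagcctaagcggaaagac
Ptgs1: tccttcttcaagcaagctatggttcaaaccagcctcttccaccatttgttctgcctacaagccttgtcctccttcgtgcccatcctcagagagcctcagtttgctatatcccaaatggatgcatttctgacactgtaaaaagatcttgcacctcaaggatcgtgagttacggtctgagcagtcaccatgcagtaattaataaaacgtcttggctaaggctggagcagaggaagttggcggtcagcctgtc
Pla2g4a: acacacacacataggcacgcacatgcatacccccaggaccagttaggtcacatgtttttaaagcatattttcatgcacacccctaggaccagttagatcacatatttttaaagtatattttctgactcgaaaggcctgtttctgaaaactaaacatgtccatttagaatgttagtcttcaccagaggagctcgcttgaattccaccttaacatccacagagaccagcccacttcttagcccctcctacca
The Ptgs2 window held TTGCGCAA, a palindrome bound by C/EBP factors, 69 bases before the start, and GGGCGG, a GC box, 170 bases before it. Of 32851 RefSeq windows of the same length, 0.164% held TTGCGCAA and 32.7% held GGGCGG on either strand. The Ptgs1 and Pla2g4a windows held neither, and their GC content was 48.0% and 43.2%, against 61.6% for Ptgs2. Also searched on both strands were TATAAA (in 12.4% of windows), TGACGTCA (the cyclic AMP response element, 1.55%) and TGACG, which overlaps it (17.8%). The rest were TGANTCA (AP-1, 6.75%), CACGTG (E box, 6.02%), GGGANTTTC (an NF-kB site, 0.941%) and GTGGGAA (RBPJ, the DNA-binding factor of Notch signalling, 5.42%). None of these 7 letter strings stood in the 3 windows. The windows stop at the RefSeq start, so the bases just after it were not searched. Nothing follows for sites there or elsewhere.

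Total counts ranged from 12136227 to 20835208 per library. Detection was taken to start at 3 counts, which stood for 0.145 to 0.244 CPM (counts relative to library size), a limit that covers counting error only. Jag1, the transduced gene, was read 159 and 112 times in vector and 5676 and 4493 times in Jagged1 cells. The epithelial markers Epcam, Krt8, Krt18, Cdh1 and Krt14 were high, with a summed level of the 7 markers of 3421 to 4450 CPM, while Krt19 and Krt5 had at most 2 counts in a library. Fibroblast markers (8 genes, 2 past the filter, Lum at 0 throughout) summed to between 4.63 and 10.7 CPM in 3 libraries and to 69.9 CPM in Jagged1 2. Most of the sum in Jagged1 2 came from Col1a1 (27.2 CPM) and Col1a2 (20.2 CPM). Pdgfrb, Col3a1, Dcn and Fap were also highest there, whereas Pdgfra was higher in Jagged1 1 (8.03 CPM) than in Jagged1 2 (6.72 CPM). Macrophage and other leukocyte markers (9 genes, 3 past the filter, Cd3e at 0 throughout) summed to 1.72 and 1.89 CPM in the libraries numbered 1 and to 10.7 and 11.5 CPM in those numbered 2. Most of the latter sums came from Lyz2, at 5.78 and 6.43 CPM there and at 0 counts in the libraries numbered 1. Adgre1 and Cd68 were also higher there, whereas Ptprc had at most 1, Tyrobp at most 2 and Itgam at most 3 counts in a library. Endothelial markers (5 genes, 1 past the filter, Emcn at 0 throughout) summed to at most 6.35 CPM.

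The 10 genes stood at very different levels. Per kilobase of exon, the order in vector cells ran from Ptges3 (121 ± 14.2 CPM per kb; SD, n = 2, as for all values of this form) over Ptgs2 (53.2 ± 2.40) and Slco2a1 (20.3 ± 0.955) to Ptgs1 (13.6 ± 2.45), Ptges2 (11.1 ± 0.898) and Pla2g4a (9.16 ± 0.262). Ptger4 (1.37 ± 0.0160), Ptges (0.761 ± 0.125), Ptger2 (0.211 ± 0.190) and Hpgd (0.0393 ± 0.0555) closed the order, and of neighbours in it only Ptger2 and Hpgd had overlapping libraries. In Jagged1 cells Ptges3 led at 118 ± 30.9 CPM per kb, followed by Ptgs2 at 29.3 ± 0.894 and Slco2a1 at 19.3 ± 0.256. The libraries of Ptges2 (11.8 ± 3.23), Ptgs1 (11.5 ± 5.87) and Pla2g4a (8.91 ± 1.49) overlapped there. So did those of Ptger4 (1.51 ± 0.208) and Ptges (0.879 ± 0.913), and those of Ptger2 (0.0533 ± 0.0622) and Hpgd (0.0144 ± 0.0203). Averaged over the 4 libraries, Ptges3 lay above 97.1% of the tested genes with a known exon length, Ptgs2 above 89.8%, Slco2a1 above 76.3% and Ptges above 9.96%. These places depend on the length used, which was that of all annotated exons of a gene, 13545 bases for Slco2a1 and 4580 for Ptgs2. In CPM not divided by length, Slco2a1 (275 ± 12.9) stood above Ptgs2 (244 ± 10.98) in vector cells.

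**Figure D1:**
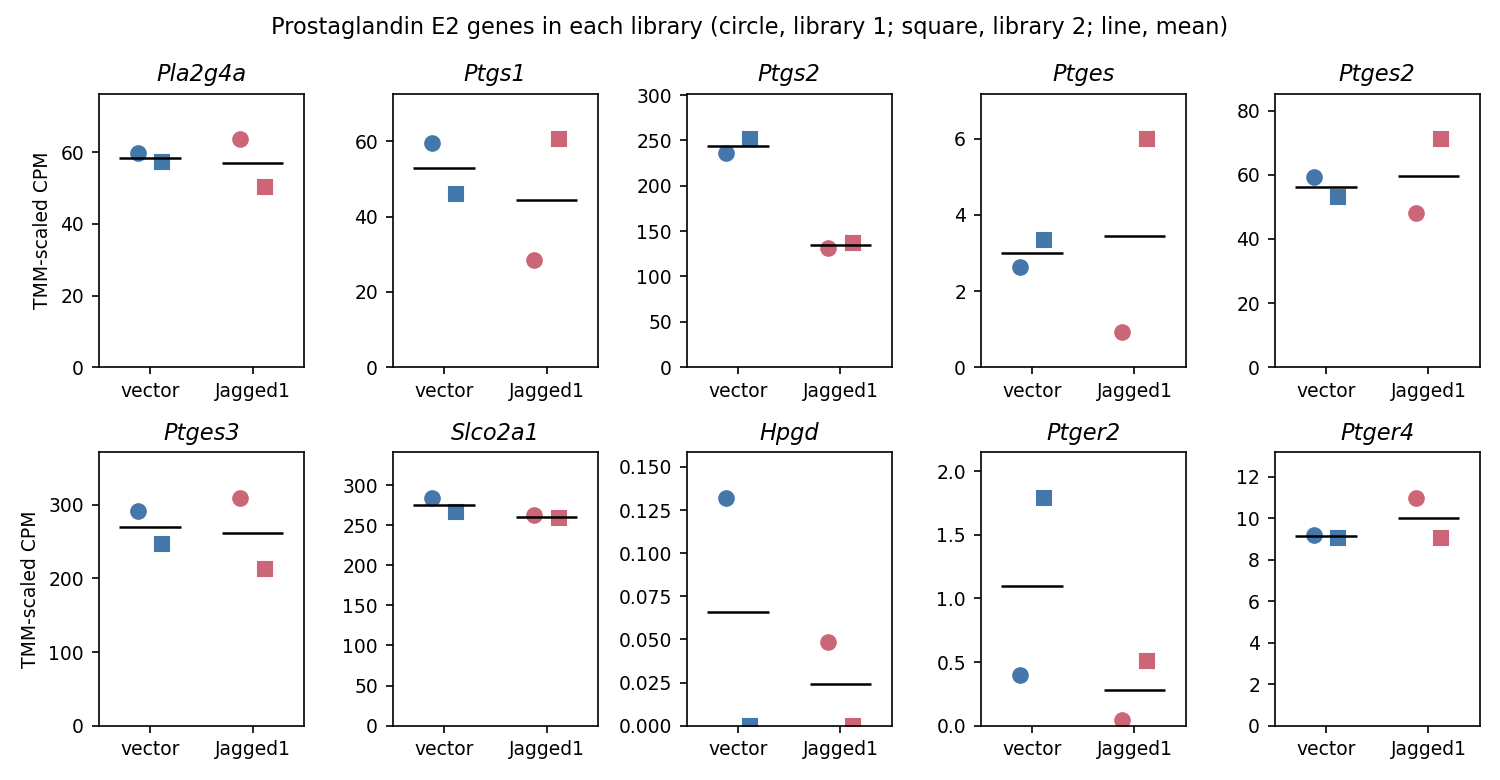
Level of each gene in TMM-scaled CPM (linear axes from 0, each panel with its own scale) in the 2 vector (blue) and 2 Jagged1 (red) libraries; circles are libraries numbered 1, squares those numbered 2, and lines group means. Ptgs2 lies at 236 and 252 CPM in vector and at 131 and 137 CPM in Jagged1 cells, while Ptges and Ptgs1 have both their lowest and their highest library among the Jagged1 cells.

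Of the 8 tested genes, 0 passed the adjusted threshold of 0.05 in edgeR's quasi-likelihood test, where 0.00752% of all tested genes passed (Jag1 alone). At an unadjusted p under 0.05 stood 1 of the 8, Ptgs2, against 3.96% of all tested genes. DESeq2 called 1 of the 8, again Ptgs2 (0.353% of all tested genes), and limma-voom called 0 (0.00752%). Log2 fold changes of Jagged1 against vector were positive in 3 genes and negative in 5, with a median of -0.04, beside a median of -0.003 and 50.5% negative values over all tested genes. In 2 of the 8, Ptgs2 and Slco2a1, the groups did not overlap and Jagged1 was the lower (15.1% of all tested genes), and in 0 of the 8 it was the higher (13.9%).

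The comparison asked first about supply. Pla2g4a, the gene of cytosolic phospholipase A2, was read at 59.7 and 57.3 CPM in the vector libraries and at 63.7 and 50.3 CPM in the Jagged1 libraries. The Jagged1 libraries lay on either side of the vector libraries, with a log2 fold change of -0.04 ± 0.18 (SE; 95% interval -0.48 to 0.41). Its sign depended on the libraries used, with 0.01 without vector 1 and 0.12 without Jagged1 2.

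Ptgs2, the gene of the inducible cyclooxygenase-2, was lower in Jagged1 cells in both libraries. It was read 3570 and 3089 times in vector 1 and 2 and 2717 and 1901 times in Jagged1 1 and 2, which came to 236 and 252 CPM against 131 and 137 CPM. The groups did not overlap, and libraries of 1 line were much closer to each other than to those of the other line. The vector mean was 244 ± 10.98 CPM and the Jagged1 mean 134 ± 4.10 CPM (SD), and the fitted level in Jagged1 cells was 0.551 times that in vector cells. The log2 fold change was -0.86 ± 0.15 (SE; 95% interval -1.22 to -0.49). It did not pass over all genes in edgeR (adjusted p = 0.720; unadjusted p = 0.00146), although by the unadjusted p Ptgs2 ranked 27 of 13299 genes. With 1 library left out the log2 fold change lay between -0.89 and -0.82. The adjusted p was 0.00430 with DESeq2 and 0.0139 in edgeR without the low-count filter, where 0.686% of all genes passed, within a range of 0.00430 to 1.00 over all alternatives.

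Ptgs1, the gene of the constitutive cyclooxygenase-1, did not share this pattern. It was read at 59.6 and 46.1 CPM in the vector libraries and at 28.4 and 60.6 CPM in the Jagged1 libraries. Jagged1 1 was thus the lowest library and Jagged1 2 the highest, and the log2 fold change was -0.25 ± 0.38 (95% interval -1.20 to 0.69; adjusted p = 1.00, edgeR). Without Jagged1 1 it was 0.19, without Jagged1 2 it was -0.90, and it was -0.04 without vector 1 and -0.43 without vector 2. The sum of fibroblast markers was 69.9 CPM in Jagged1 2 and 4.63 CPM in vector 1, where Ptgs1 stood at 60.6 and 59.6 CPM. A link of that sum to the Ptgs1 reads was not tested. Exons of Ptgs1 overlap those of Gm43621 on the opposite strand, so part of its reads, here and in the share below, may belong to that gene.

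Within a library, the share of Ptgs2 among the counts of both cyclooxygenase genes does not depend on scaling between libraries. For the vector libraries it was 79.8% (exact Clopper-Pearson 95% interval 78.6 to 81.0%) and 84.5% (83.3 to 85.7%). For Jagged1 1 it was 82.3%, with an interval of 80.9 to 83.5%, and for Jagged1 2 it was 69.4%, with an interval of 67.6 to 71.1%. The intervals cover counting error only. Jagged1 1 lay between the vector libraries and Jagged1 2 below both, so the groups overlapped, at 82.2 ± 3.30% in vector and 75.8 ± 9.11% in Jagged1 cells (SD, n = 2). The difference of -6.36 percentage points was 0.0774 without Jagged1 2 and -12.8 without Jagged1 1. No permutation test was run, since the smallest two-sided p of an exact one is 0.333 for groups of 2.

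**Figure D2:**
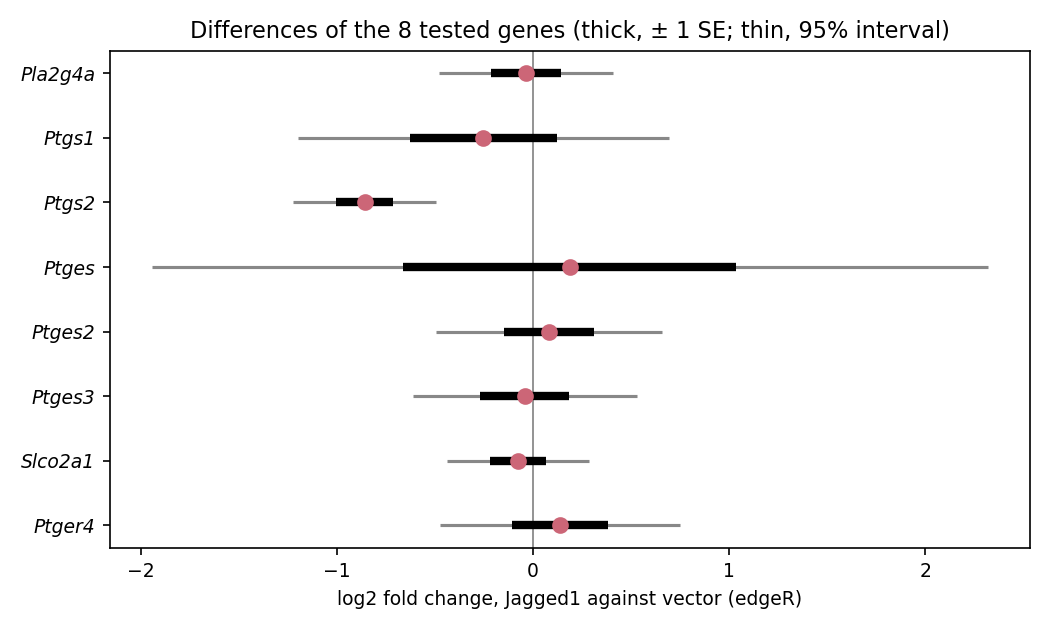
Log2 fold change of Jagged1 against vector (edgeR) for the 8 tested genes; points are estimates, thick bars ± 1 SE and thin bars the 95% interval. The interval of Ptgs2, -1.22 to -0.49, lies below 0, and those of the other 7 genes hold 0, the widest being that of Ptges, -1.94 to 2.32.

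Among the terminal synthases no gene passed the test, and the 3 genes differed in how far their libraries spread. Ptges, the gene of the inducible microsomal synthase that works with cyclooxygenase-2, was read only 40 and 41 times in vector and 19 and 83 times in Jagged1 cells. In CPM these were 2.64 and 3.34 against 0.919 and 5.99, so that Jagged1 1 was the lowest library and Jagged1 2 the highest. The log2 fold change was 0.19 ± 0.85 (95% interval -1.94 to 2.32; adjusted p = 1.00, edgeR), and it was -1.69 without Jagged1 2, 1.00 without Jagged1 1, 0.05 without vector 1, 0.36 without vector 2 and -0.50 with limma-voom. The direction of Ptges was therefore not determined by these libraries. Its highest library, Jagged1 2, was also the one with the highest sum of fibroblast markers, mostly from collagen genes, and a link was not tested.

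Ptges2, the gene of a membrane-associated synthase expressed in most tissues, was read at 59.4 and 53.0 CPM in vector and at 48.1 and 71.1 CPM in Jagged1 cells. Again Jagged1 1 was the lowest and Jagged1 2 the highest library, with a log2 fold change of 0.08 ± 0.23 (95% interval -0.49 to 0.66). It was -0.007 without vector 2, -0.23 without Jagged1 2, 0.34 without Jagged1 1 and 0.19 without vector 1. Ptges3, which encodes the cytosolic synthase, also known as p23, a partner of the chaperone Hsp90, was read at 292 and 247 CPM in vector and at 310 and 213 CPM in Jagged1 cells. Here the order was turned, Jagged1 1 being the highest library and Jagged1 2 the lowest. The log2 fold change of Ptges3 was -0.04 ± 0.23 (95% interval -0.61 to 0.53), with 0.10 without vector 1, 0.20 without Jagged1 2, -0.34 without Jagged1 1 and -0.16 without vector 2.

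Slco2a1, the gene of the prostaglandin carrier that takes prostaglandin E2 into cells, varied least between libraries among the abundant genes. It was read at 284 and 266 CPM in vector and at 263 and 258 CPM in Jagged1 cells. The Jagged1 libraries lay just below the vector libraries without overlap, by a log2 fold change of -0.08 ± 0.14 (95% interval -0.44 to 0.28; adjusted p = 1.00, edgeR). Leaving out 1 library gave values between -0.13 and -0.008, the smaller without vector 1. Exons of Slco2a1 overlap the small gene n-R5s89 on the opposite strand, which limits its reads in the same way as those of Ptgs1. Hpgd, the gene of the dehydrogenase that inactivates prostaglandin E2, was read 2 and 0 times in vector and 1 and 0 times in Jagged1 cells. It was under the floor of 3 counts in each library, so a difference was not detectable at this depth and no fold is given. The carrier of the uptake and breakdown route was therefore abundant in both lines while transcripts of its dehydrogenase were not detected above the floor in either.

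Both receptors that raise cyclic AMP were read at low levels. Ptger4, the gene of receptor EP4, stood at 9.19 and 9.04 CPM in vector and at 10.99 and 9.03 CPM in Jagged1 cells. Only Jagged1 1 stood apart, on the high side, and the log2 fold change was 0.14 ± 0.24 (95% interval -0.47 to 0.75; adjusted p = 1.00, edgeR). Without Jagged1 1 it was -0.02 and without Jagged1 2 it was 0.27. Exons of Ptger4 overlap exons of the protein-coding gene Ttc33 on the opposite strand, and the strand setting of the counting is not given, so reads of both could not be told apart.

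Ptger2, the gene of receptor EP2, was read 6 and 22 times in vector and 1 and 7 times in Jagged1 cells, and did not pass the low-count filter. In CPM these were 0.397 and 1.79 against 0.0484 and 0.505, so that within each line the library numbered 2 was higher and the groups overlapped. Without the filter its log2 fold change was -2.06 ± 0.82 (SE; adjusted p = 0.540, edgeR). The libraries numbered 2 also had the higher sums of leukocyte markers, mostly from Lyz2, and a link to the Ptger2 reads was not tested. Exons of Ptger2 overlap 2 non-coding genes on the opposite strand, Gm17173 and Gm49364, with the same limit on strand as for Ptger4.

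The Jagged1 libraries differed more from each other than the vector libraries did in 6 of the 8 tested genes, and less in 2, Ptgs2 and Slco2a1. The share over all tested genes was not counted, so this is not shown to be particular to these genes. On the first principal component (main axis of variation, 51.6%) of all tested genes, Jagged1 libraries lay at -25.9 and 40.0 and vector libraries at -31.1 and 17.1. This axis thus parted the libraries numbered 1 from those numbered 2 in both lines. The lines parted on the second component (32.4%), with Jagged1 libraries at 34.5 and 7.72 and vector libraries at -27.1 and -15.1. From Jagged1 1 to Jagged1 2 the log2 level differed by 2.55 for Ptges, 1.09 for Ptgs1, 0.56 for Ptges2, -0.54 for Ptges3, -0.34 for Pla2g4a and -0.28 for Ptger4. For Ptgs2 it differed by 0.06, against 0.09 between the vector libraries, and for Slco2a1 by -0.03, against -0.10. Between the vector libraries the values of the same 8 genes ran from -0.37 for Ptgs1 to 0.32 for Ptges.

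**Figure D3:**
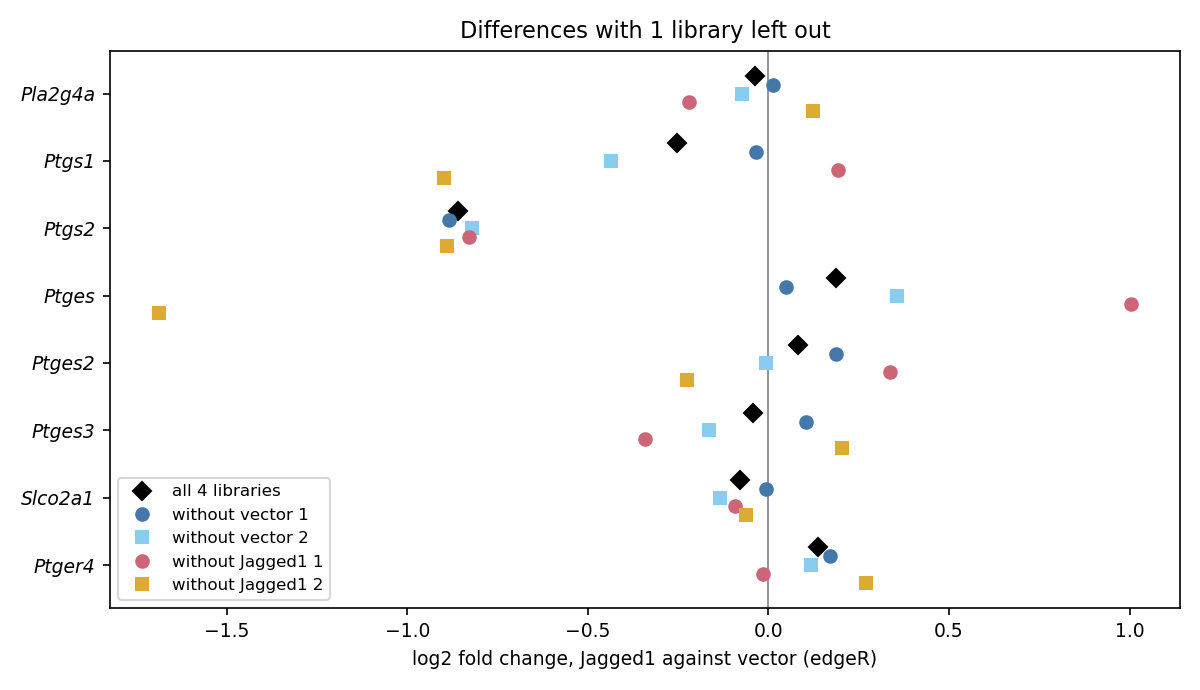
Log2 fold change of Jagged1 against vector (edgeR) for the 8 tested genes with all 4 libraries (black) and with 1 library left out (colours). Ptgs2 stays between -0.89 and -0.82, Slco2a1 stays below 0, and the other 6 genes have values on both sides of 0, from -1.69 to 1.00 for Ptges.

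By the distance between centred log2 CPM profiles over the 4 libraries, the 5 genes most like Ptgs2 were Trib3 (distance 0.114), Ppp1r15a (0.133), Hspa5 (0.137), Pdia5 (0.154) and Gbp4 (0.161). The median distance over 9346 genes with a mean of at least 10 CPM was 0.907. Their log2 fold changes were -0.83 ± 0.15, -0.84 ± 0.19, -0.94 ± 0.15, -0.76 ± 0.22 and -0.98 ± 0.15 in that order. Because the genes were picked by these same libraries, values near that of Ptgs2 follow from the choice. With 4 libraries such closeness is a description only, and exons of Ppp1r15a overlap Tulp2 and those of Gbp4 overlap Gbp8 and Gbp9 in the annotation, which leaves the division of their reads uncertain.

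The wider arachidonate pathway was described with lists drawn up from textbook knowledge, but with earlier results of these data known. Of their tested genes, 0 passed the adjusted threshold in either direction (0.00752% of all tested genes passed). Of 22 genes listed for arachidonate supply, 13 were tested, 7 with positive and 6 with negative values and a median log2 fold change of 0.05. The list mixes phospholipases A2 with genes for arachidonate release and re-esterification, so a positive value does not stand for more supply. The groups did not overlap with Jagged1 the higher in 4 (13.9% of all tested genes) and with Jagged1 the lower in 1 (15.1%). The secreted phospholipase gene Pla2g7, whose enzyme breaks down platelet-activating factor, went with 196 ± 43.2 CPM in the vector line and 256 ± 8.80 CPM in the Jagged1 line (SD; log2 fold change 0.39 ± 0.20). Pla2g12a stood at -0.35 ± 0.21 and Pla2g4b, read at most 15 times in a library, at 1.28 ± 0.59. Exons of Pla2g4b overlap those of Gm28042 and Sptbn5, so its reads are uncertain, and those of Pla2g7 overlap 1700071M16Rik on the opposite strand. With 1 library left out Pla2g7 ran from 0.17 to 0.65 and Pla2g12a from -0.49 to -0.17.

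Of 14 other prostanoid synthases, reductases and carriers, 9 were tested, 3 with positive and 6 with negative values and a median of -0.07. The groups did not overlap with Jagged1 the lower in 1 (15.1% of all tested genes) and with Jagged1 the higher in 1 (13.9%). Slco3a1, the gene of another carrier that can move prostaglandins, had 93.0 and 87.9 CPM in vector and 65.6 and 69.8 CPM in Jagged1 cells. Its groups did not overlap, and its log2 fold change of -0.42 ± 0.15 did not pass (adjusted p = 1.00, edgeR). Ptgr1, the gene of a reductase that acts after the dehydrogenase step, stood at 0.24 ± 0.15, and the aldo-keto reductase gene Akr1b3 at -0.22 ± 0.30. Akr1b3 turned to 0.02 without vector 1 and 0.11 without Jagged1 2.

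None of the 7 other prostanoid receptor genes passed the filter, and the 6 found in the table summed to between 0.436 and 1.14 CPM. Of 14 genes listed for the lipoxygenase branch, 2 were tested, both with overlapping groups. Leukotrienes are among the products this branch makes from the same fatty acid, and the list also holds leukotriene receptors. The 2 tested genes were Lta4h, the leukotriene A4 hydrolase gene, at -0.08 ± 0.17, and Aloxe3 at -0.37 ± 0.56. Their signs turned without vector 1 (0.09) and without Jagged1 1 (0.13), in that order. Only these 2 genes of the list passed the filter, and Alox5 and Alox15 had at most 2 counts in a library.

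**Figure D4:**
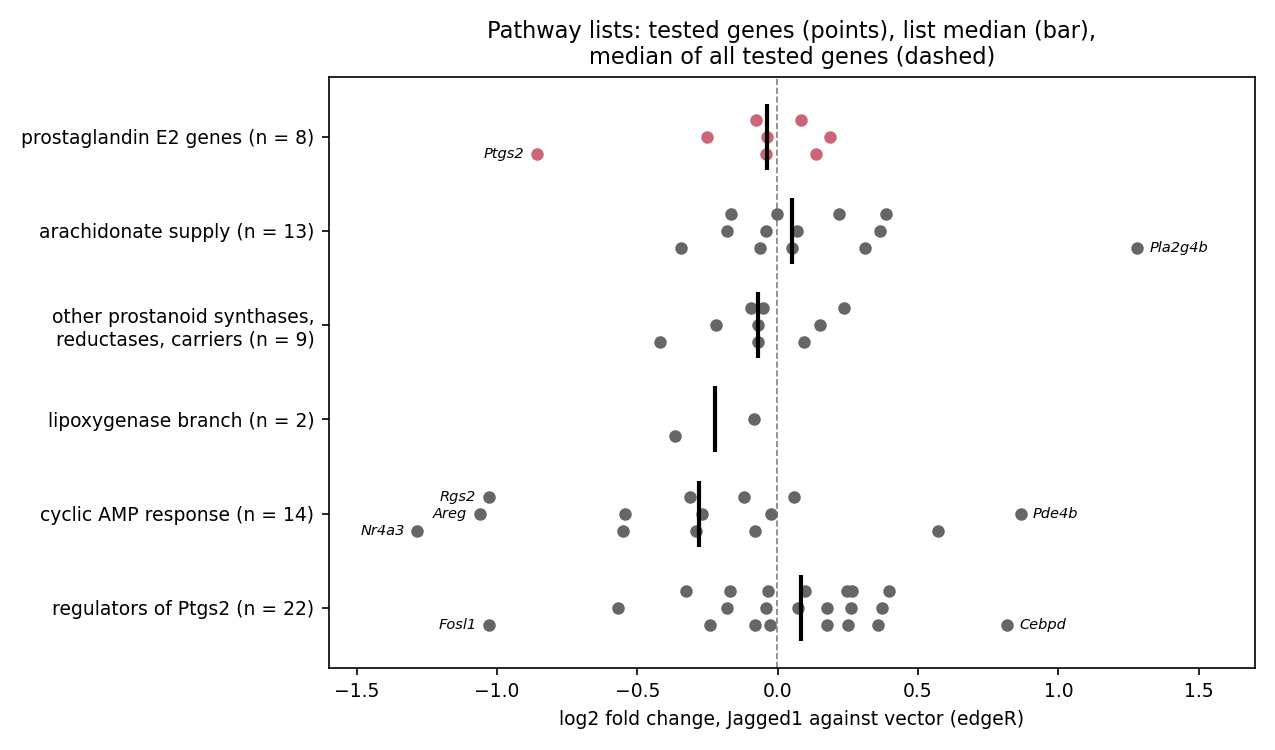
Log2 fold change of Jagged1 against vector (edgeR) for the tested genes of each list (points), with list medians (bars) and the median of all tested genes (dashed line). Ptgs2 at -0.86 stands apart from the other 7 prostaglandin E2 genes, and the cyclic AMP response genes have a median of -0.28.

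Genes listed as responding to cyclic AMP, the second messenger of EP2 and EP4, had mostly negative values. Cyclic AMP was not measured, and a link of these values to EP2, EP4 or Ptgs2 was not tested. Of 16 listed genes 14 were tested, 3 with positive and 11 with negative values. The groups did not overlap with Jagged1 the lower in 6 (15.1% of all tested genes) and with Jagged1 the higher in 1 (13.9%). The median was -0.28, beside -0.003 over all tested genes, for a list chosen with earlier results of these data known. Areg, the gene of the growth factor amphiregulin, was read at 89.0 and 88.4 CPM in vector and at 50.9 and 33.9 CPM in Jagged1 cells (log2 fold change -1.06 ± 0.23; adjusted p = 0.914, edgeR). Rgs2, the gene of a regulator of G protein signalling, stood at 13.9 and 13.5 against 5.27 and 8.23 CPM (-1.03 ± 0.30). Pde4b, the gene of a phosphodiesterase that breaks down cyclic AMP, went the other way, with 47.1 and 58.5 against 73.8 and 118.7 CPM (0.87 ± 0.27). The groups did not overlap in any of these 3 genes. Areg passed with DESeq2 (adjusted p = 0.0298) and, like Pde4b, without Jagged1 1 (adjusted p = 0.00187 and 0.00485, edgeR), where 1.38% of all tested genes passed and the lone Jagged1 library was assumed to vary like the vector libraries. Their log2 fold changes without Jagged1 1 and without Jagged1 2 were -1.39 and -0.80 for Areg, 1.17 and 0.49 for Pde4b and -0.74 and -1.38 for Rgs2. Over all alternatives the adjusted p ran from 0.000389 to 1.00 for Areg and from 0.00485 to 1.00 for Pde4b.

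Of 22 regulators of Ptgs2 transcription and messenger stability all 22 were tested, 12 with positive and 10 with negative values and a median of 0.08. The groups did not overlap with Jagged1 the lower in 3 (15.1% of all tested genes) and with Jagged1 the higher in 3 (13.9%). The AP-1 gene Fosl1 was read at 31.4 and 32.5 CPM in vector and at 19.0 and 12.2 CPM in Jagged1 cells (log2 fold change -1.03 ± 0.25; adjusted p = 0.923, edgeR), without overlap. It passed without Jagged1 1 (-1.39, adjusted p = 0.00668) and not without Jagged1 2 (-0.75), with adjusted p-values of 0.00543 to 1.00 over all alternatives, and its exons overlap those of Ccdc85b. Celf2, which encodes an RNA-binding protein, stood at 0.37 ± 0.18, and its exons overlap those of Gm26565 on the opposite strand. Cebpd, which encodes a C/EBP factor, was read at 128.5 and 97.5 CPM in vector and at 116.5 and 282 CPM in Jagged1 cells. Cebpd thus stood apart only in Jagged1 2, the library with the highest sum of fibroblast markers, and a link was not tested. Its log2 fold change of 0.82 ± 0.43 was 0.05 without Jagged1 2 and 1.32 without Jagged1 1, where it passed (adjusted p = 0.00227, edgeR; range 0.00227 to 1.00). Cebpb, the other C/EBP gene listed, was looked up because of the TTGCGCAA match after its values were seen, and stood at -0.08 ± 0.25. Exons of Cebpd overlap those of Spidr on the opposite strand, so its reads are uncertain.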

How the data were processed

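The authors deposited a table of raw read counts by gene symbol with a column for each library. The submitters' processing notes name STAR 2.6.0c, featureCounts 1.6.2 and the genome build mm10 (GRCm38). For the annotation release and strand setting, nothing is given in the sources used here. Libraries were grouped by the virus named in the labels. Low counts were removed by filterByExpr (edgeR 4.0.16, minimum count 10). Libraries were scaled by TMM and the quasi-likelihood F test of edgeR was applied per gene (robust, no block) in R 4.3.3, with Benjamini-Hochberg adjustment over all 13299 tested genes and a threshold of 0.05. SE is the size of the log2 fold change over the root of F, and 95% intervals use the degrees of freedom of that test. The alternatives were DESeq2 1.42.0, limma-voom (limma 3.58.1), other scalings and filters, a replicate block and leaving out each library. The scripts were tested on simulated data.

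Exon lengths and overlaps came from GENCODE M21 (GRCm38), in which 85.9% of the tested genes matched 1 annotated gene by symbol, and promoters from RefSeq. The members and lists were chosen with earlier results of these data known. Named were the 10 members, Jag1, all called list genes and up to 3 more per list with the smallest unadjusted p, and the 5 genes most like Ptgs2 (log2 CPM, prior count 2). Symbols that had turned into dates (27) or stood repeatedly (2) are not reported by name.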

Additional observations from a re-analysis of the deposited data

How the results depend on the processing

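The number of genes past the threshold, 1 in edgeR, was 47 with DESeq2, 169 without the low-count filter and 17 with the replicate block, and ran from 0 to 193 with 1 library left out. Of the prostaglandin E2 genes 0 passed in edgeR, 1 (Ptgs2) with DESeq2 and 1 (Ptgs2) without the filter, and 0 in each fit with 1 library left out. Without the filter the test of Ptgs2 had 49306 degrees of freedom, against 5.48 with it. The libraries of equal number deviated together (correlation 0.43 over genes), but with 2 pairs and no word in the labels the numbers were not taken to pair the libraries; under the replicate block Ptgs2 stood at -0.86 (adjusted p = 0.0628, edgeR) and Ptges turned to -0.23. Ptges also turned to -0.50 with limma-voom. The RLE and upper-quartile scalings turned 0 of the 28 named genes tested. With 1 library left out, signs turned within these ranges: Pla2g4a -0.22 to 0.12, Ptgs1 -0.90 to 0.19, Ptges -1.69 to 1.00, Ptges2 -0.23 to 0.34, Ptges3 -0.34 to 0.20, Ptger4 -0.015 to 0.27, Akr1b3 -0.67 to 0.11, Aloxe3 -1.05 to 0.13 and Lta4h -0.23 to 0.088. The cause was not tested. Jag1 lay between 4.80 and 5.06 and lost its call without vector 1 (adjusted p = 0.240) or vector 2 (0.153). The share of Ptgs2 among cyclooxygenase counts differed by -12.8 to 0.0774 percentage points with 1 library left out. Depth limits Hpgd and Ptger2, and 2 libraries per line limit all tests.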
